A study of Mus musculus with 18 samples.

Results

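The genes of the constitutive proteasome were taken as a set: every non-control probe of the array whose gene name begins with Psma, Psmb, Psmc, Psmd, Psme or Psmf and a digit, with the immune and thymic catalytic subunits Psmb8, Psmb9, Psmb10 and Psmb11 left out. This gave 34 gene symbols with 44 probes, of 38354 gene names with 41174 distinct non-control probes. A symbol among them, Psmc3ip, with 2 probes, is a meiotic recombination factor and no proteasome gene, which left 42 probes of 33 proteasome genes. They were measured in thymocytes of C57BL/6 mice of 6, 16 and 24 months, 3 mice per age, each mouse's RNA labelled with Cy3 and hybridised together with Cy5-labelled thymocyte RNA of 1 month C57BL/6 mice on its own 2-colour oligonucleotide array. The 9 arrays carried no dye swap, so an age against the 1 month reference is also Cy3 against Cy5, and age and dye cannot be told apart there. The series text calls the reference a pool and the sample labels describe numbered 1 month mice. It was treated as 1 control sample, and each log ratio was taken against the reference on its own array. If the reference was a pool, the spread between 1 month mice is not in those tests. If the arrays held separate 1 month mice, that spread is part of the log ratios. Which of these holds cannot be told here. In the difference between 2 older ages the dye is the same on both sides. No treatment of the mice is named in the labels; thymus suspensions were strained, freed of fat cells by a wash and of red cells by lysis, and the labels name no sort for thymocytes. The p-values measure the spread between these samples.

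The proteasome is the protease that degrades most short-lived and damaged proteins marked with ubiquitin. Its 20S core is a barrel of outer alpha rings, which gate the entry, around inner beta rings, of which Psmb5, Psmb6 and Psmb7 carry the active sites. A 19S cap with a ring of ATPases unfolds the substrate, and the lid of the cap, including the deubiquitinase Psmd14, removes the ubiquitin chain; other caps (Psme1 to Psme4) open the gate without ATP, and Psmf1 was described as an inhibitor of the core. In the thymus, proteasomes supply the peptides on which T cells are selected and process NF-kappaB precursors in developing T cells.

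Values are log2 ratios of the processed Cy3 signal over the processed Cy5 signal, so a positive value means more signal in the older mouse. Of the 44 probes, 42 were well above background in both channels on all arrays and none was saturated. The exception that was not tested is a clone-derived Psma2 probe, which stood above background on too few arrays, and 43 probes entered the tests over 37448 probes. A probe was called at a Benjamini-Hochberg adjusted p under 0.05 in limma. Haemoglobin probes, which report red cell RNA left after lysis, differed between the arrays of an age: their mean log2 ratio ran from -1.08 to -0.66 at 6 months, from -0.40 to 0.97 at 16 months and from -0.94 to 0.67 at 24 months. The 7 thymocyte markers were tested and measured in every library, with a mean log2 ratio between 0.10 and 0.39 on all 9 arrays. B and plasma cell markers (5 of 5 tested) had mean log2 ratios of 0.14 to 0.28 at 6 months, 0.80 to 1.37 at 16 months and 0.67 to 1.24 at 24 months, so that the 6 month arrays lay below all others. The 6 macrophage and dendritic cell markers ran from -0.21 to -0.10, from 0.26 to 0.76 and from 0.05 to 0.78 at the same ages. Natural killer and cytotoxic cell markers (5 of 5 tested) ran from 0.12 to 0.27, from 0.44 to 1.17 and from 0.12 to 0.87. Granulocyte markers (5 of 5 tested) ran from -1.70 to -1.23, from -2.17 to 1.59 and from -2.76 to -1.43. Epithelial markers (6 of 7 tested) had a mean log2 ratio below 0 on every array, from -1.05 to -0.03. Stromal markers (4 of 4 tested) had means from -0.08 to 0.30 at 6 months, 0.24 to 0.76 at 16 months and 0.14 to 0.81 at 24 months. Fat cell markers (3 of 3 tested) ran from -0.20 to -0.13, from -0.16 to 0.08 and from 0.03 to 1.02. The part of these other cells in the results below was not tested, and fewer cells of a type and less RNA per cell cannot be told apart in such suspensions.

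The stretches before the transcription start of 4 of the genes described below are given first, because they hold the alpha subunits Psma4 and Psma2 and the ATPase Psmc6, whose tested probes under the name rule had the largest differences of 16 or 24 months from 6 months, and the ATPase Psmc1, which was above the reference at every age. They are RefSeq sequences of build GRCm38.p6, 250 bases ending just before the start, all on the plus strand, for Psma4 at chr9:54950609-54950858, Psma2 at chr13:14612992-14613241, Psmc6 at chr14:45329574-45329823 and Psmc1 at chr12:100109952-100110201. Capitals mark, on either strand, the core of the antioxidant response element (TGACNNNGC), the CCAAT box (CCAAT) and the GC box (GGGCGG); none of these patterns contains another.
Psma4: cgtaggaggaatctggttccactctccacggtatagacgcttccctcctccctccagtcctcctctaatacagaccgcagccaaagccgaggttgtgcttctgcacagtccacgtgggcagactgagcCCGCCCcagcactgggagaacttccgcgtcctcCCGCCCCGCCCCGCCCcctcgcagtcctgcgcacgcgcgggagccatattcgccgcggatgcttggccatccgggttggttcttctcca
Psma2: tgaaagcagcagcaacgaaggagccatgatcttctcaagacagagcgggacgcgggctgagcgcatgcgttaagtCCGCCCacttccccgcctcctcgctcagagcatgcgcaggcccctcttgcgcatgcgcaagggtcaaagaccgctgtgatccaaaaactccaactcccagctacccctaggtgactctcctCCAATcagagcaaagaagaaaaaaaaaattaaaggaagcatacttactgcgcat
Psmc6: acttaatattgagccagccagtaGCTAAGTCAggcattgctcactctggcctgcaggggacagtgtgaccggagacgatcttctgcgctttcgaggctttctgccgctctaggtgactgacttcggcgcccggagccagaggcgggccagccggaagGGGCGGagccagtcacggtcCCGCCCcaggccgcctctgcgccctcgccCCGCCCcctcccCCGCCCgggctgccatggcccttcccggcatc
Psmc1: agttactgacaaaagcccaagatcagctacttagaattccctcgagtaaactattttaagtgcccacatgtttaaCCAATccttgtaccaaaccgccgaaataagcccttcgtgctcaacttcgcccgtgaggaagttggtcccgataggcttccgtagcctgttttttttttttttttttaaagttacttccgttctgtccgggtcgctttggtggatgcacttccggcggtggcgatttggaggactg
The Psma4 stretch held 4 GC boxes, 3 of them in an overlapping run, and neither of the other patterns. Psma2 held 1 CCAAT box and 1 GC box, and Psmc1 held 1 CCAAT box. Psmc6 held 1 antioxidant element core and 4 GC boxes. Promoters were found for 27 of the 33 proteasome genes. The antioxidant element core, the site type through which Nfe2l1 (NRF1) is known to drive proteasome genes, was present for 5 of these 27 genes (Psmb5, Psmb6, Psmc6, Psmd9 and Psmd12), or 18.5%, and in 10.2% of all 32851 promoter stretches of the same length. A CCAAT box was present for 11 genes (40.7%, against 33.8% of all stretches), and a GC box for 17 (63.0%, against 32.7%). The TATA box letters TATAAA were present for 0 of 27 (against 12.4%). A gene was counted if any of its stretches matched, and 3 genes had more than 1, whereas the background counts single stretches. Of the 30 stretches of these genes, 5 held the antioxidant element core, 11 a CCAAT box, 18 a GC box and 0 the TATA box letters. These are matches of letters in a short window and say nothing of binding.

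At 6 months, 8 of the 43 probes were called, 7 higher and 1 lower than the 1 month reference, where 12.4% of all probes tested were called, 7.61% higher and 4.76% lower. At 16 months 13 probes were called, 10 higher and 3 lower (background 18%, or 11.4% higher and 6.59% lower), and at 24 months 14 were called, 7 higher and 7 lower (background 24.9%, or 11.6% higher and 13.3% lower). At an unadjusted p under 0.05 the limma fit held 19, 24 and 21 of the 43 probes, against 31.1%, 34% and 40.4% of all probes. All 3 log ratios of an age had the same sign for 30, 35 and 25 of the 43, against 57.2%, 59% and 56%. Over all 3 ages 18 probes of 15 genes were called at least once, and 5 probes were called at every age, all higher: those of Psmb7, Psmc1 and Psmd3 and 1 clone-derived probe each of Psmd7 and Psmd12. The changes were small. The largest mean rise was 0.62 on the log2 scale (1.53-fold), and the largest fall was 0.50 (the reference was 1.42-fold higher). The median log2 ratio of the 41 tested proteasome probes, Psmc3ip left out, was 0.07 at 6 months, 0.11 at 16 months and 0.01 at 24 months, beside -0.01, -0.01 and -0.02 over all 37448 probes. The 2 Psmc3ip probes were not called at any age. Single arrays weighed on these counts: the 8 calls at 6 months became 2 without 6 month replicate 1, 0 without 6 month replicate 2 and 5 without 24 month replicate 1. At 16 months 5 calls were left without 16 month replicate 1 and 2 without 16 month replicate 2. At 24 months 4 were left without either replicate 1 or replicate 2 of that age, and 8 without 6 month replicate 2. With the haemoglobin log ratio of each array as a covariate the calls were 0, 6 and 14 at the 3 ages, and with only the arrays of each age fitted they were 1, 5 and 0.

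**Figure D1:**
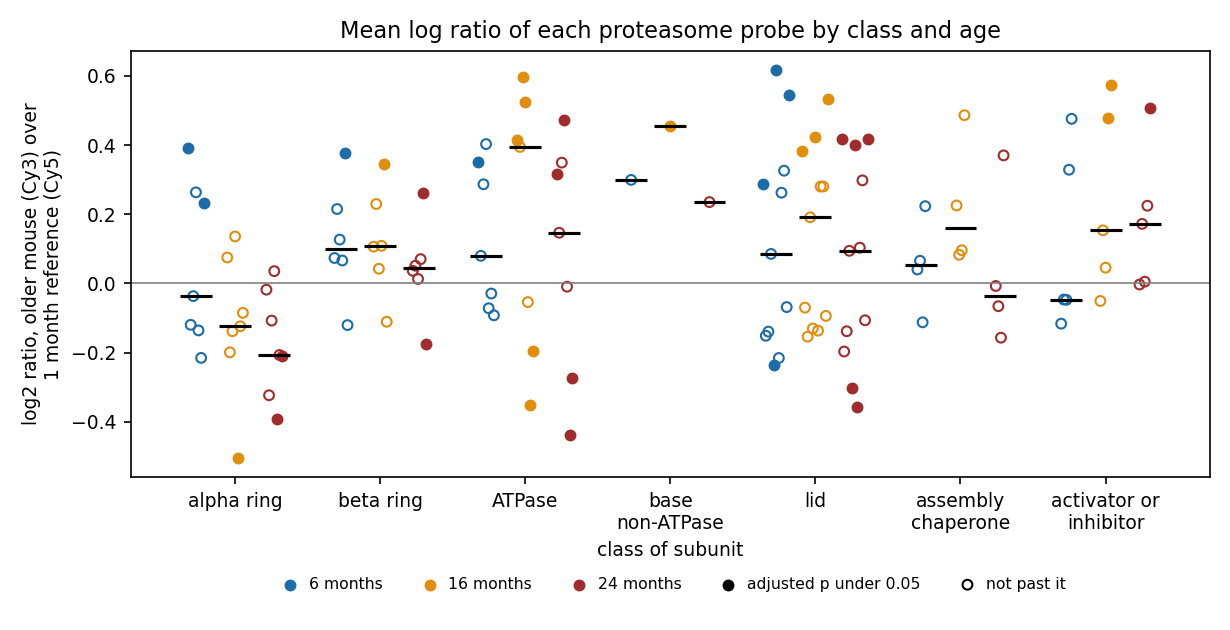
Mean log2 ratio over 3 arrays (vertical axis) of each of the 41 tested proteasome probes by class of subunit (horizontal axis) and age (colour); filled points passed an adjusted p under 0.05, open points did not, and black bars are medians over the probes of a class. The alpha ring medians lie below 0 at all ages (-0.04, -0.12 and -0.21). Single probes of the alpha ring, the ATPases and the lid lie on both sides of 0.

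The alpha ring was measured by 7 tested probes of 6 genes. Its median log2 ratio was -0.04 at 6 months, -0.12 at 16 months and -0.21 at 24 months, and 6 of the 7 probes were lower at 24 than at 6 months, 2 of them probes of the same gene, Psma4. The same direction was seen for 5 of 6 beta ring probes, 8 of 11 lid probes and 27 of all 41 tested proteasome probes. It was not general: of the 7 ATPase probes 4 were higher and 3 lower at 24 than at 6 months (median 0.06). Of the 5 activator and inhibitor probes 4 were higher and 1 lower (median 0.05). Psma4 (alpha 3), whose N-terminal tail is part of the gate of the core, had log2 ratios of 0.37, 0.41 and 0.39 on the 6 month arrays, -0.01, 0.05 and 0.18 at 16 months, and -0.07, -0.05 and 0.06 at 24 months with the probe for its RefSeq transcript. All 3 mice of 6 months lay above all 6 older mice. Of all probes tested, 14% had no overlap of arrays, in either direction, at 16 against 6 months and 16% at 24 against 6 months. The clone-derived Psma4 probe gave 0.24, 0.30 and 0.15 at 6 months, -0.17, -0.07 and -0.01 at 16 months, and -0.19, -0.31 and -0.14 at 24 months. It showed the same order, again without overlap between 6 months and the older ages.

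Against the 1 month reference Psma4 rose 1.31-fold at 6 months with the RefSeq probe (0.39 ± 0.02, SD, n = 3; adjusted p = 0.00702), and 1.17-fold with the clone probe (0.23 ± 0.08, SD, n = 3; adjusted p = 0.0363). At 24 months the clone probe fell by 0.21 (adjusted p = 0.0312), whereas the RefSeq probe stood at -0.02 (adjusted p = 0.823). Between ages no call was reached for either probe. At 24 against 6 months the RefSeq probe differed by -0.41 (95% interval -0.58 to -0.24; adjusted p = 0.335) and the clone probe by -0.44 (-0.62 to -0.26; adjusted p = 0.335). At 16 against 6 months both differed by -0.32 (adjusted p = 0.769 for each). With both probes averaged, the exact two-sided permutation test over the mice gave p = 0.1 for 16 and for 24 against 6 months. The value of 0.1 is the smallest that 3 against 3 mice allow, and arrays without overlap always give it. It restates the order of the mice given above and is no further evidence for Psma4. For 24 against 16 months the exact two-sided permutation test gave p = 0.2. The permutation test was run for Psma4, Psmc6 and Psma2 only, which were picked for their large differences from 6 months. The 6 month call of the RefSeq probe was lost without 6 month replicate 2 (adjusted p = 0.0622) and with the haemoglobin covariate (0.0588). The clone probe lost its 6 month call without any single 6 month array (adjusted p 0.0619 to 0.201), without 16 month replicate 2 (0.059) and without 24 month replicate 1 (0.0586), and its 24 month call without 24 month replicate 1 (0.0954) or 2 (0.135). Its 6 month call was also lost with the haemoglobin covariate (adjusted p = 0.211). The haemoglobin log ratios, in the order in which the Psma4 values are given above, were -1.08, -1.01 and -0.66 at 6 months. They were 0.97, 0.56 and -0.40 at 16 months and -0.94, 0.15 and 0.67 at 24 months. Mice ranked by haemoglobin and by the RefSeq probe stood in the same order at 24 months and in reverse order at 16 months. Apart from the covariate fit, the part of red cell RNA in the Psma4 values was not tested. In the Cy3 channel alone, as log2 signal above the median probe, the RefSeq probe of Psma4 read 2.53, 2.65 and 2.49 at 6 months, 2.09, 2.32 and 2.56 at 16 months, and 2.21, 1.97 and 2.37 at 24 months, so that 1 mouse of 16 months reached the 6 month range there. The 1 month reference on the same arrays read between 2.03 and 2.42.

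**Figure D2:**
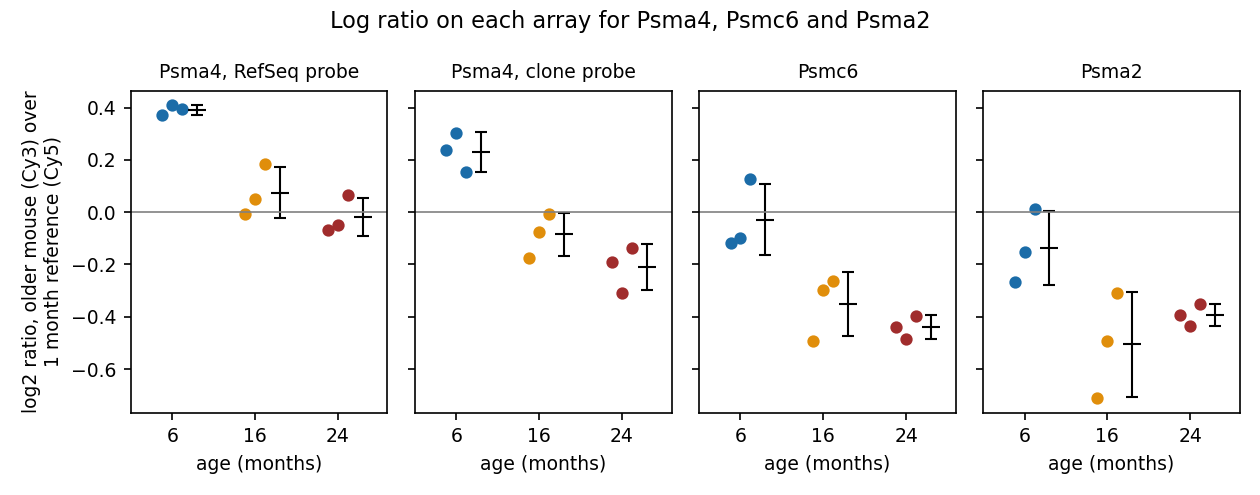
Log2 ratio of each array (coloured points, vertical axis) by age in months (horizontal axis) for both Psma4 probes, Psmc6 and Psma2, with black marks for the mean and SD of 3 mice. The 3 points of 6 months lie above all points of 16 and 24 months in each panel. Of all probes tested, 14% had no overlap of arrays, in either direction, at 16 against 6 months and 16% at 24 against 6 months.

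Psma2 (alpha 2), another gate subunit, was the lowest of the tested probes taken by the name rule at 16 months. Its log2 ratios were -0.27, -0.15 and 0.01 at 6 months, -0.71, -0.49 and -0.31 at 16 months, and -0.39, -0.44 and -0.35 at 24 months. It fell by 0.50 against the reference at 16 months (SE 0.08; adjusted p = 0.00739) and by 0.39 at 24 months (SE 0.08; adjusted p = 0.0144), and stood at -0.14 at 6 months (adjusted p = 0.292). The 6 month mice lay above all older mice, and the difference of 24 from 6 months was -0.26 (95% interval -0.52 to 0.01; adjusted p = 0.555) and that of 16 from 6 months -0.37 (-0.63 to -0.10; adjusted p = 0.769). The fall was no longer called at 16 months without replicate 2 of that age (adjusted p = 0.0542), nor at 24 months without replicate 1 (0.0625) or 2 (0.0642) of that age. Psma7 (alpha 4) had values of -0.32 to 0.13 at 6 months, -0.29 to -0.15 at 16 months and -0.51 to -0.05 at 24 months, where its mean of -0.32 was not past the threshold (adjusted p = 0.0579). Psma3 (alpha 7) was the alpha subunit with a positive mean at every age, 0.26, 0.14 and 0.04, with no call. The means of Psma5 and Psma6 lay between -0.22 and -0.04 at all ages and were not called. Psma1 (alpha 6) is on the array under an accession and not under its symbol; its probe stood at -0.15 at 6 months, and fell by 0.38 at 16 months (adjusted p = 0.0124) and by 0.42 at 24 months (adjusted p = 0.00825).

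Among the beta subunits the catalytic ones took different directions. Psmb7 (beta 2, the trypsin-like site) was above the reference on all 9 arrays, at 0.42, 0.40 and 0.31 at 6 months, 0.28, 0.36 and 0.40 at 16 months, and 0.32, 0.22 and 0.24 at 24 months. It rose 1.30-fold at 6 months (adjusted p = 0.00612), 1.27-fold at 16 months (adjusted p = 0.00449) and 1.20-fold at 24 months (adjusted p = 0.00946). Its arrays overlapped between ages, with a difference of -0.12 at 24 against 6 months (95% interval -0.27 to 0.04; adjusted p = 0.63). The 16 month call held with each array left out in turn, that of 6 months was lost without 6 month replicate 2 (adjusted p = 0.0593), and that of 24 months without 24 month replicate 1 (0.0559). Psmb6 (beta 1, the caspase-like site) was below the reference on all 9 arrays, at -0.14, -0.13 and -0.09 at 6 months, -0.09, -0.15 and -0.09 at 16 months, and -0.20, -0.24 and -0.09 at 24 months. It fell by 0.17 (SE 0.05; adjusted p = 0.0301) at 24 months, and was not called at 6 months (adjusted p = 0.121) or 16 months (adjusted p = 0.133). The 24 month call was lost without 6 month replicate 2 (adjusted p = 0.0549) and without 24 month replicate 1 (0.12) or 2 (0.123). Psmb5 (beta 5, the chymotrypsin-like site and main target of proteasome inhibitors) read 0.34, 0.20 and 0.11 at 6 months, 0.06, 0.38 and 0.25 at 16 months, and -0.05, 0.08 and 0.12 at 24 months. It was not called, with means of 0.22 (adjusted p = 0.0938), 0.23 (adjusted p = 0.0678) and 0.05 (adjusted p = 0.635). It was among the 3 members with the smallest p at 24 against 16 months, where it differed by -0.18 (95% interval -0.42 to 0.06; adjusted p = 0.862). The structural subunits Psmb1, Psmb2 and Psmb3 had means between 0.01 and 0.13 and no call with their probes of the name rule. A brighter Psmb3 probe outside the rule had means of 0.09, -0.11 and 0.02 at 6, 16 and 24 months and was not called. Psmb4 (beta 7), which the array lists under an accession, stood at -0.12 at 6 months, and fell by 0.35 at 16 months (adjusted p = 0.00523) and by 0.27 at 24 months (adjusted p = 0.0103).

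The subunits that replace these sites in immune cells are outside the set and give a scale. Psmb8, the immune counterpart of Psmb5, had 2 probes that rose at all 3 ages, with means of 0.35, 0.53 and 0.46 for the probe carrying its symbol (adjusted p = 0.0431, 0.00870 and 0.0127). Psmb9, which takes the place of Psmb6, rose at 16 months (0.28; adjusted p = 0.0355) and 24 months (0.27; adjusted p = 0.0327). Psmb10, which takes the place of Psmb7, rose at 16 months (0.43; adjusted p = 0.0181). The probe of the thymoproteasome subunit Psmb11, made in cortical epithelium, was well above background in Cy3 on 0 of 9 arrays and was not tested.

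The ATPase ring had class medians of 0.08 at 6 months, 0.39 at 16 months and 0.15 at 24 months over 7 probes of its 6 genes, and its probes were split in direction. At 16 months 5 of its 7 probes were called, 3 higher and 2 lower, against 18% of all probes (11.4% higher and 6.59% lower). Among these calls, 1 higher and 1 lower were the 2 probes of the same gene, Psmc5. On single arrays the median of the ATPase ring lay between -0.09 and 0.47 at 6 months, 0.13 and 0.57 at 16 months, and -0.0030 and 0.26 at 24 months. Its distance from the median of the core (alpha and beta) probes was 0.0063 at 6 months, 0.35 at 16 months and 0.16 at 24 months, computed from the means of each age. The value at 6 months rested on single arrays, at -0.05 without 6 month replicate 1, -0.04 without replicate 2 and 0.23 without replicate 3. At 16 months it was 0.23 without replicate 2 of that age.

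Psmc1 (Rpt2), which opens the core gate, was above the reference on all 9 arrays: 0.54, 0.34 and 0.18 at 6 months, 0.24, 0.61 and 0.39 at 16 months, and 0.22, 0.40 and 0.33 at 24 months. It rose 1.27-fold, 1.33-fold and 1.25-fold (adjusted p = 0.0402, 0.0181 and 0.0354). The ages overlapped. These calls were near the threshold, and all 3 were lost with the haemoglobin covariate (adjusted p = 0.187, 0.0587 and 0.0524). That of 6 months was lost without 6 month replicate 1 (adjusted p = 0.174) or 2 (0.167), 16 month replicate 3 (0.0613) or 24 month replicate 1 (0.0584) or 3 (0.056), that of 16 months without 16 month replicate 2 (0.117) or 3 (0.0643), and that of 24 months without 6 month replicate 2 (0.0586), 16 month replicate 3 (0.0541) or any 24 month array (0.0799 to 0.14). Psmc3 (Rpt5), another ATPase whose tail docks into the alpha ring, read 0.64, 0.49 and 0.08 at 6 months, 0.53, 0.67 and 0.38 at 16 months, and 0.28, 0.66 and 0.48 at 24 months. It rose 1.44-fold at 16 months (adjusted p = 0.0196) and 1.39-fold at 24 months (adjusted p = 0.023). At 6 months, with 1 mouse near the reference, it was not called (0.40; adjusted p = 0.0563). Its calls were lost without 16 month replicate 1 (0.0708) or 2 (0.126) at 16 months, and without 24 month replicate 2 (0.11) or 3 (0.068) at 24 months. Psmc4 (Rpt3) lay on both sides of 0 among the mice of 6 months, at 0.47, 0.14 and -0.37, and was not called at any age. The Psmc2 (Rpt1) probe carrying the symbol stayed between -0.10 and 0.02 on all arrays and was not called. A brighter Psmc2 probe under an accession had means of 0.13 at 6 months and 0.23 at 24 months, not called, and rose by 0.42 at 16 months (adjusted p = 0.0227), so the probes of this gene differ as well.

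Psmc6 (Rpt4) moved the other way. Its log2 ratios were -0.12, -0.10 and 0.13 at 6 months, -0.49, -0.30 and -0.26 at 16 months, and -0.44, -0.48 and -0.40 at 24 months. It fell by 0.35 (SE 0.07; adjusted p = 0.0124) at 16 months and by 0.44 (SE 0.07; adjusted p = 0.00562) at 24 months against the reference, and stood at -0.03 at 6 months (adjusted p = 0.797). The 6 month mice lay above all older mice. The difference between ages was -0.41 at 24 against 6 months (95% interval -0.63 to -0.19; adjusted p = 0.42) and -0.32 at 16 against 6 months (-0.54 to -0.10; adjusted p = 0.769), neither past the threshold. The exact permutation p was 0.1 for each of these comparisons and for the same comparisons of Psma2. This is the smallest p the test allows, and arrays without overlap always give it. It restates the order of the mice and is no further evidence. The 24 month call held with each array left out in turn, and that of 16 months was lost without 16 month replicate 1 (adjusted p = 0.057) or 2 (0.0639). A further Psmc6 probe, listed under an accession and so outside the name rule, was below the reference on all 9 arrays. It read -0.66, -0.48 and -0.18 at 6 months, -0.45, -0.71 and -0.65 at 16 months, and -0.68, -0.88 and -0.65 at 24 months. It fell at every age (adjusted p = 0.0282, 0.00736 and 0.00395), and its arrays overlapped between the ages.

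**Figure D3:**
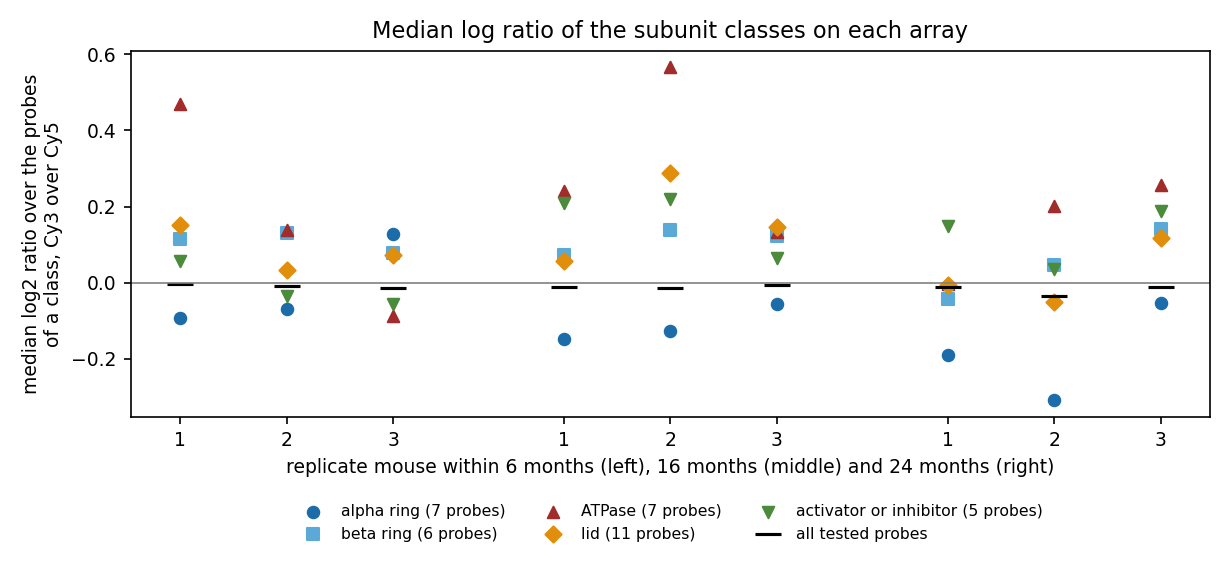
Median log2 ratio over the probes of 5 classes (vertical axis) on each array (horizontal axis, 3 mice per age), with the median of all 37448 tested probes as a black bar. The ATPase median runs from -0.09 to 0.57 over the 9 arrays, and the alpha ring median lies below 0 on every array but the third of 6 months (0.13).

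In the 19S cap Psmd3 (Rpn3), a scaffold subunit of the lid, was above the reference on all 9 arrays. Its log2 ratios were 0.37, 0.35 and 0.14 at 6 months, 0.33, 0.35 and 0.46 at 16 months, and 0.42, 0.48 and 0.35 at 24 months. It rose 1.22-fold at 6 months (adjusted p = 0.024), 1.30-fold at 16 months (adjusted p = 0.00674) and 1.34-fold at 24 months (adjusted p = 0.00483). The 16 and 24 month calls held with each array left out in turn, and that of 6 months was lost without 6 month replicate 1 (adjusted p = 0.108) or 2 (0.148). Psmd4 (Rpn10), a ubiquitin receptor of the base, read 0.53, 0.38 and -0.01 at 6 months, 0.52, 0.55 and 0.30 at 16 months, and 0.17, 0.27 and 0.27 at 24 months. It rose 1.37-fold at 16 months (adjusted p = 0.019), a call lost without 16 month replicate 1 (0.0791) or 2 (0.12). Its 16 and 24 month arrays did not overlap, with a difference of -0.22 (95% interval -0.54 to 0.10; adjusted p = 0.862). Psmd11 (Rpn6), a lid subunit that clamps the cap to the core, was above the reference on all 9 arrays (0.02 to 0.47), and its means of 0.33, 0.28 and 0.30 were not called (adjusted p = 0.0629, 0.0812 and 0.0554). The deubiquitinase Psmd14 (Rpn11) had means of -0.15, -0.07 and -0.20 and was not called; its further probe under an accession had means of 0.12, 0.29 and 0.16 and was not called either. The assembly chaperones of the base, Psmd5, Psmd9 and Psmd10, had 4 probes with means between -0.16 and 0.49 and no call at any age.

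For 6 proteasome genes more than 1 probe of the name rule was tested, and for some of them the probes did not give the same direction. Psmd12 (Rpn5), a lid subunit, had 3 probes. The brightest lay at -0.07, -0.09 and -0.11 on average at 6, 16 and 24 months and was not called. The RefSeq probe fell by 0.24 at 6 months (adjusted p = 0.0369) and by 0.30 at 24 months (adjusted p = 0.0109), whereas the dimmest rose by 0.62, 0.42 and 0.40 (adjusted p = 0.0138, 0.0299 and 0.0303). Psmc5 (Rpt6), an ATPase, had a bright clone-derived probe that fell by 0.20 at 16 months (adjusted p = 0.0441) and by 0.27 at 24 months (adjusted p = 0.0128), and a dimmer RefSeq probe that rose 1.51-fold at 16 months (adjusted p = 0.0283). The per-array values of the former were -0.27, -0.25 and -0.06 and of the latter 0.86, 0.57 and 0.37 at 16 months, so the probes of this gene did not overlap. The gene has no settled direction against the reference here, nor has Psmd12.

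The probes of Psmd7 (Rpn8), the partner of Psmd14 in the lid, all had positive means, from 0.09 to 0.54, but only the clone-derived probe that was highest at every age was called (0.54, 0.53 and 0.42; adjusted p = 0.0288, 0.0226 and 0.0403). For Psmd8 (Rpn12), another lid subunit, both probes had negative means at all ages, and the dimmer fell by 0.36 at 24 months (adjusted p = 0.0344). The probes of a gene lay 0.16, 0.34 and 0.32 apart in the median at 6, 16 and 24 months against the reference. This was taken over the 7 genes with more than 1 tested probe of the name rule (Psmc3ip included). In the differences between ages they lay closer, 0.14 apart at 16 against 6 months, 0.17 at 24 against 6 months and 0.08 at 24 against 16 months. The Psma4 probes differed by 0.16 from each other at 6 months and by 0.03 in the change from 6 to 24 months. Many calls in genes with several probes were lost without 1 array. The dimmest Psmd12 probe lost its 6 month call without 6 month replicate 1 (adjusted p = 0.0605) or 2 (0.0955), and its later calls without 6 month replicate 2 (0.0526 and 0.0506) or any array of the same age (0.0827 to 0.142 and 0.0517 to 0.138). The RefSeq Psmd12 probe lost its 6 month call without any 6 or 16 month array or 24 month replicate 1 (0.0508 to 0.199), and its 24 month call without 24 month replicate 1 (0.0579) or 2 (0.0512). The RefSeq Psmc5 probe lost its call without any 16 month array (0.0521 to 0.128). The bright Psmc5 probe lost its 16 month call without every single array but 16 month replicate 3 and 24 month replicate 2 (0.0502 to 0.221), and its 24 month call without 24 month replicate 1 (0.0579). The Psmd7 calls were lost without 6 month replicate 1 (0.102) or 2 (0.145), without any 16 month array (0.0568 to 0.138), and at 24 months without 6 month replicate 2 (0.0644) or any 16 or 24 month array (0.0530 to 0.149). That of Psmd8 was lost without 6 month replicate 2 (0.0537), 16 month replicate 2 (0.0523), or 24 month replicate 1 (0.150) or 2 (0.159).

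**Figure D4:**
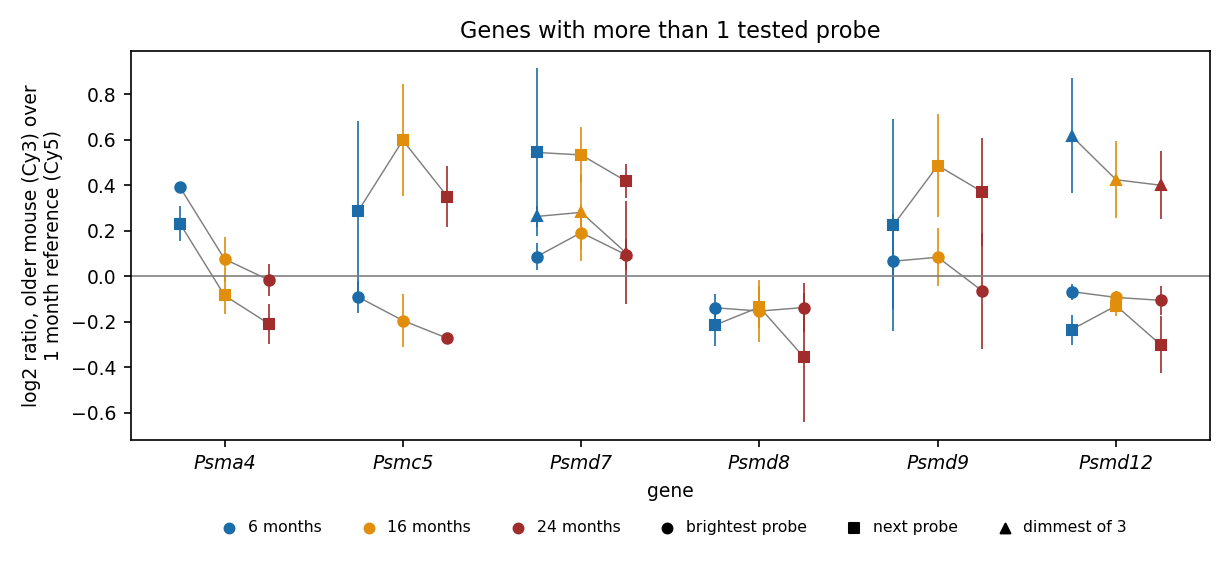
Mean log2 ratio with SD over 3 mice (vertical axis) of each probe of the 6 proteasome genes with more than 1 tested probe of the name rule (horizontal axis). The ages of 6, 16 and 24 months run from left to right within a gene, and symbols rank the probes by brightness. The 2 Psma4 lines run in parallel, while the probes of Psmc5 and Psmd12 lie on both sides of 0.

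Over the 41 proteasome probes, dimmer probes had the higher log ratios. Spearman's rho between mean log2 intensity and mean log2 ratio was -0.41 at 6 months, -0.59 at 16 months and -0.42 at 24 months, whereas over all 37448 tested probes it was 0.06, 0.03 and 0.07. These are descriptions across probes that share arrays and, for some, genes, and probes are not independent replicates. The part of brightness in the differences between classes against the reference was not tested. Psmd3, at a mean log2 intensity of 15.4, was an exception among the brightest probes, with positive values on all arrays.

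**Figure D5:**
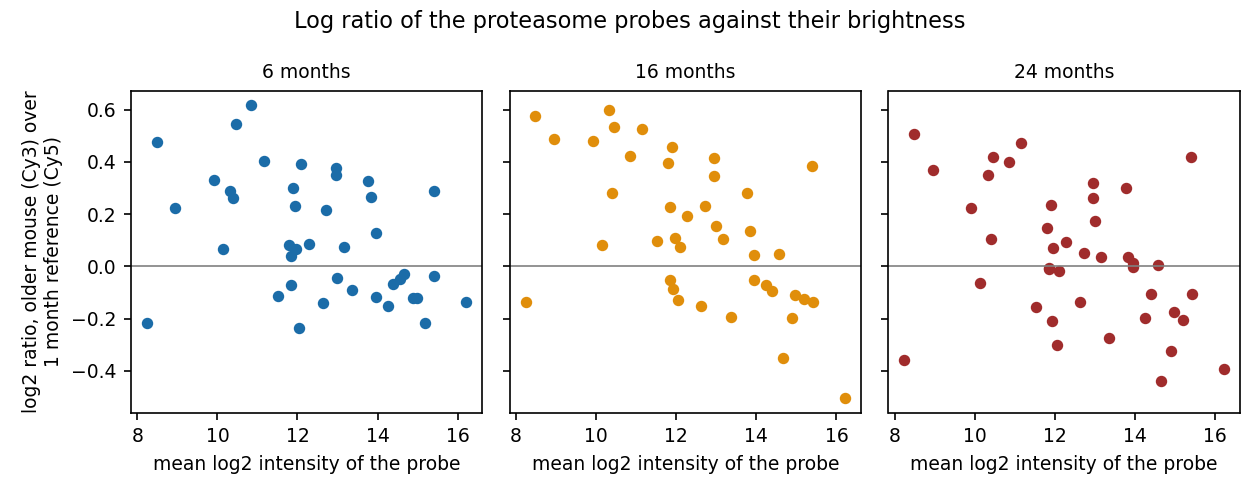
Mean log2 ratio over 3 mice (vertical axis) of the 41 tested proteasome probes against their mean log2 intensity over both channels and all arrays (horizontal axis), at 6, 16 and 24 months. Dimmer probes lie higher, with Spearman's rho of -0.41, -0.59 and -0.42.

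The alternative caps and the inhibitor were measured by 1 rule-matching probe each. Psmf1 (PI31) had the highest mean of them: 0.71, 0.38 and 0.34 at 6 months, 0.77, 0.70 and 0.25 at 16 months, and 0.10, 0.73 and 0.69 at 24 months. It rose 1.49-fold at 16 months (adjusted p = 0.0349) and 1.42-fold at 24 months (adjusted p = 0.0425), and was above the reference on all 9 arrays but not called at 6 months (0.48; adjusted p = 0.074). Of the calls, that of 16 months was lost without 16 month replicate 1 (0.147) or 2 (0.179) or 6 month replicate 2 (0.0575). That of 24 months was lost without 24 month replicate 2 (0.184) or 3 (0.153), 6 month replicate 2 (0.0648) or 3 (0.0558), or 16 month replicate 1 (0.0513) or 2 (0.0603). Of 2 further Psmf1 probes under other names, 1 had means of -0.06, 0.01 and -0.05 and the other 0.42, 0.26 and -0.07, and neither was called, so the direction of this gene is not settled. Psme4 (PA200), a cap known from histone degradation, read 0.35, 0.27 and 0.36 at 6 months, 0.70, 0.49 and 0.24 at 16 months, and 0.14, 0.04 and 0.50 at 24 months. It rose 1.39-fold at 16 months (adjusted p = 0.0201), a call lost without 16 month replicate 1 (0.0915) or 2 (0.11), and its difference of 24 from 16 months was -0.25 (95% interval -0.59 to 0.09; adjusted p = 0.862). A brighter Psme4 probe under an accession had means of -0.06, -0.04 and -0.22 and was not called.

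Psme3 (PA28 gamma), the nuclear cap, went from 0.06, -0.03 and -0.16 at 6 months to 0.21, 0.22 and 0.03 at 16 months and 0.21, 0.12 and 0.19 at 24 months. The 24 month mice all lay above the 6 month mice, with a difference of 0.22 (95% interval 0.02 to 0.41; adjusted p = 0.532), the only one of the 3 lead members of that comparison to be higher at 24 months. It was not called against the reference at any age. Psme1 (PA28 alpha), which forms the interferon-induced cap with Psme2, read 0.04, -0.11 and -0.28 at 6 months, -0.11, -0.03 and -0.01 at 16 months, and 0.15, -0.06 and -0.10 at 24 months. Psme2 (PA28 beta) read -0.0034, -0.08 and -0.06 at 6 months, 0.05, 0.02 and 0.06 at 16 months, and 0.26, -0.27 and 0.02 at 24 months. Neither was called at any age, and their differences of 24 from 6 months were 0.11 (95% interval -0.13 to 0.35) and 0.05 (-0.23 to 0.34). A brighter Psme2 probe outside the name rule had means of -0.20, -0.11 and -0.13 and was not called.

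Between the older ages themselves, 0 of the 43 probes were called in any of the 3 contrasts or in the F test of any difference, and 0 of all 37448 probes were (background 0%). At an unadjusted p under 0.05 the limma fit held 5 of the 43 probes at 16 against 6 months (6.38% of all probes), 6 at 24 against 6 months (9.11%) and 0 at 24 against 16 months (4.77%), and 5 in the F test (6.64%). The probes at 16 against 6 months were both Psma4 probes, Psma2, Psmc6 and Psme3. At 24 against 6 months they were both Psma4 probes, Psmc6, Psme3, the bright Psmc5 probe and a Psmc3ip probe. The arrays did not overlap for 5, 7 and 1 of the 43 probes in these contrasts, against 14%, 16% and 10.8% of all probes. None of the 43 probes was called in any of the alternatives (10 other settings and each of the 9 arrays left out in turn), the lowest adjusted p being 0.193 at 16 against 6 months, 0.283 at 24 against 6 months and 0.507 at 24 against 16 months. The median difference of the 41 proteasome probes was 0.03, -0.05 and -0.09 for the same contrasts, beside 0.01, -0.02 and -0.02 over all probes.

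Further probes for the subunits, 16 in number for 14 genes, are on the array under accession or clone names. Of these 3 were called higher and 1 lower at 6 months, 4 higher and 4 lower at 16 months, and 3 higher and 4 lower at 24 months, against 12.4%, 18% and 24.9% of all probes called in either direction. Psmd2 (Rpn1), a base subunit and docking site for shuttle receptors, rose at every age with both of its probes; the dimmer read 0.30, 0.49 and 0.41 at 6 months, 0.77, 0.69 and 0.45 at 16 months, and 0.56, 0.85 and 0.44 at 24 months (adjusted p = 0.0317, 0.00534 and 0.00548). Psmd13 (Rpn9), a lid subunit, rose at 6 months (0.59; adjusted p = 0.0101), 16 months (0.59; adjusted p = 0.00611) and 24 months (0.32; adjusted p = 0.0373). Psmd6 (Rpn7), another lid subunit, stood at -0.19 at 6 months, and fell by 0.27 at 16 months (adjusted p = 0.0324) and by 0.37 at 24 months (adjusted p = 0.0100). These 3 genes were chosen for mention after their values were seen. Adrm1 and Sem1, subunits with names of another form, were not called.

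The other genes of the pathway were 38 in 9 lists, of which 34 were tested. Of all probes tested, 7.61%, 11.4% and 11.6% were called higher at 6, 16 and 24 months. Called lower were 4.76%, 6.59% and 13.3%. Ubiquitin and its activating enzymes had 10 probes of 6 genes: 3 were called higher and 1 lower at 6 months, 5 and 1 at 16 months, and 6 and 1 at 24 months. The probes called higher were of 3, 4 and 5 genes at these ages. Uba1, the main activating enzyme, rose at each age, by 0.39, 0.61 and 0.49 (adjusted p = 0.0259, 0.00430 and 0.00775), and so did a probe of Uba6, the other such enzyme (0.67, 0.63 and 0.36; adjusted p = 0.00486, 0.00296 and 0.0148). The regulators of proteasome transcription had 9 probes of 6 genes: 0 were called higher and 2 lower at 6 months, 1 and 2 at 16 months, and 1 and 5 at 24 months. The probes called lower were of 1 gene at 6 months, 1 gene at 16 months and 2 genes at 24 months. Nfe2l2 (NRF2), the oxidative stress regulator, fell by 0.24, 0.32 and 0.30 with its brightest probe (adjusted p = 0.0296, 0.00808 and 0.00876), and Ngly1, the enzyme that processes NRF1, fell by 0.43 at 24 months with its brighter probe (adjusted p = 0.0158). Nfe2l1 (NRF1) itself had means of -0.04, -0.12 and -0.13 and was not called. The deubiquitinases Usp14 and Uchl5, which trim chains at the cap, had 4 probes, of which 0 were called higher at any age. Called lower were 1, 1 and 3 probes, of 1, 1 and 2 genes. Uchl5 fell by 0.37, 0.36 and 0.39 (adjusted p = 0.0342, 0.0274 and 0.0175).

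Among the assembly factors Pomp, the maturation factor of the core, rose by 0.35 at 6 months (adjusted p = 0.0412), Psmg2 rose at 6 and 16 months with 1 of its 2 probes, and Psmg1 fell by 0.44 at 24 months (adjusted p = 0.02). In the list of 5 probes this made 2 called higher at 6 months, 1 higher at 16 months and 1 lower at 24 months. The 8 probes of shuttle receptors, which bring ubiquitinated proteins to the cap, were split: 1 higher and 1 lower at 6 months, 1 and 2 at 16 months, and 2 and 2 at 24 months, with probes of Ubqln1 in both directions (0.70 and -0.30 at 6 months). The second call higher at 24 months, Ubqln4, rested on 1 array (0.80, 3.83 and 0.80). Of the 6 probes for p97, which extracts ubiquitinated proteins from complexes, and its partners, 2 were called higher at each age and 0, 1 and 1 lower. Of the 3 probes of Ecpas and Ube3c, which bind the proteasome as accessory factors, 1 was called higher at each age (Ecpas, 0.30, 0.30 and 0.19), and 0, 1 and 1 lower. No probe of these lists was called between the older ages. Together the 52 tested probes of the lists held 16 called at 6 months (11 higher), 23 at 16 months (15 higher) and 29 at 24 months (15 higher), against 12.4%, 18% and 24.9% of all probes.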

How the data were processed

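Thymocyte RNA was measured on 9 Agilent 2-colour arrays. Per the file headers, the deposited intensity values are processed signals, which the authors' software (Feature Extraction; 7.5.1 in the headers, 7.1 in the submitters' processing notes) had background-subtracted and normalized between dyes by LOWESS (smooth factor 0.25). The score in the authors' deposited series table equals, as checked here, the log10 processed signal standardised within each channel, and served as an alternative. The 2 sample files of an array were identical on all 9 arrays. Outlier spots were left out and replicate spots averaged. Probes entered the tests if marked as above background in all 3 Cy3 samples of at least 1 age or in Cy5 throughout, which left 37448. The log2 ratio of Cy3 over Cy5 was fitted in limma 3.58.1 (R 4.3.3) with a mean per age over all arrays and tested two-sided against 0 or between ages, with Benjamini-Hochberg adjustment over all probes tested. The fit was tested on simulated data. The labels give 1 mouse per older sample; the number of arrays limits the precision. Tables were made in Python 3.11.15 with pandas 2.3.3 and figures with matplotlib 3.10.9. Symbols follow the array, whose names can be old.

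The members and lists were chosen with earlier results of these data known. Values on every array are given for Psma4, the catalytic subunits, the caps and inhibitor, and in each comparison up to 5 highest and 5 lowest called genes with log ratios of 1 sign or, between ages, arrays not overlapping (where none was called, the 3 with the smallest p), with 1 probe per gene, the brightest. Other probes are given where they disagree, and up to 2 called members of a pathway list. Promoters were matched by symbol in a RefSeq table of build GRCm38.p6. The signals were also taken as raw means with normexp (offset 50) and loess, with 50 added, median-centred, and with other filters, designs and arrays left out.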

Additional observations from a re-analysis of the deposited data

Results flagged for a closer look

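The Cy5 level of the 1 month reference for a clone-derived Psmd7 probe was 0.19 (log2 above the median probe) on the array of 24 month replicate 2, below the range of 0.42 to 0.65 on the other 8 arrays. Chance marks about 1 in 20 groups in this way, and 43 probes were examined.

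For the clone-derived Psma4 probe all 6 month mice were above the reference and all 16 and 24 month mice below it, with differences of -0.32 at 16 against 6 months (adjusted p = 0.769) and -0.44 at 24 against 6 months (adjusted p = 0.335). For the Psme2 probe of the name rule all 6 month mice were below and all 16 month mice above it, with a difference of 0.093 (adjusted p = 0.912). The brighter Psme2 probe outside the rule was below the reference on all 16 month arrays (-0.04, -0.20 and -0.09). The limma tests of the differences between ages did not pass the threshold.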

How the results depend on the processing

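Counts of called members against the reference fell when only the arrays of 1 age were fitted (1 at 6 months, 5 at 16 months, 0 at 24 months), when the haemoglobin log ratio was a covariate (0 at 6 months, 6 at 16 months; 14 at 24 months, as without it) and with the replicate number as a block (3 at 6 months, 8 at 24 months; 10 at 16 months). Between ages, correlations of same-numbered arrays ran from -0.31 to 0.10, and those of arrays with different numbers from -0.26 to 0.33. Whether same-numbered arrays share a batch was not tested. Without 1 array the counts ran from 0 to 9 at 6 months, 2 to 14 at 16 months and 4 to 15 at 24 months. The calls of the pathway lists were 9 at 6 months with the replicate block, 2 there with the covariate, and 2, 14 and 0 at the 3 ages with only the arrays of that age; without 1 array they ran from 2 to 18, 5 to 25 and 12 to 29. Raw signals with normexp gave 12, 18 and 11 member calls and the authors' scores 6, 16 and 19. Between ages every setting, each array left out included, gave 0 to 0 member calls. The ATPase median minus the core median ran, without 1 array, from -0.046 to 0.23 at 6 months, where it reversed without 6 month replicate 1 (-0.046) or 2 (-0.041), from 0.23 to 0.41 at 16 months and from 0.12 to 0.22 at 24 months. The Psma4 RefSeq probe at 24 months, not called, changed sign with median centring (0.0015) and without 24 month replicate 1 (0.0076); without 1 array it ran from -0.059 to 0.0076. The cause of these shifts was not tested. Dye is not balanced, and each age has 3 mice.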
